A study of Rattus norvegicus with 42 samples.

Results

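The transcripts described here encode 8 GABA receptor subunits that act largely outside the fast inhibitory synapse: the GABA-A subunits Gabra4, Gabra5, Gabra6 and Gabrd, the rho subunits Gabrr1 and Gabrr2, and the GABA-B subunits Gabbr1 and Gabbr2. They were chosen by gene symbol, with earlier results of these data known. Each of the 8 symbols had 1 transcript among the 15516 transcripts (14304 symbols) in the count table. RNA was sequenced from the hippocampus of male Sprague Dawley rat pups, 1 library per animal, 72 h after 1 intraperitoneal treatment on postnatal day 7. The vehicle group (VEH) received saline, and the drug groups received phenobarbital (PB, 75 mg/kg), a barbiturate that strengthens GABA-A receptor currents, or levetiracetam (LEV, 200 mg/kg), an antiseizure drug that binds a synaptic vesicle protein. Pups carried no seizure model or genetic change, were returned to the dam after dosing, and came from animals bought in separate orders, with 1 pup per litter in each treatment group. One VEH animal is labelled as excluded and was left out, which leaves 13 VEH, 14 PB and 14 LEV animals.

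GABA-A receptors are chloride channels built from several subunits. Receptors with the delta subunit (Gabrd), usually together with Gabra4 in the forebrain or Gabra6 in the cerebellum, and many with Gabra5, sit outside synapses and carry a tonic current at low GABA levels. The rho subunits form channels that open slowly and are best known from the retina. GABA-B receptors are not channels but G protein-coupled receptors: Gabbr1 binds GABA, Gabbr2 couples to the G protein, and both are needed in 1 working receptor, which slows transmitter release and opens potassium channels. In the hippocampus, Gabra5 marks pyramidal cells, Gabra4 and Gabrd mark dentate granule cells, and both GABA-B subunits are found in most neurons.

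The sample codes have 2 forms, 1 for animals 1 to 6 and 1 for animals 7 to 14 of each group. The form of the code was kept as a term beside the treatment in the main comparisons. With treatment in the same fit, 30.2% of the 13062 tested transcripts differed between the code forms at an adjusted p under 0.05. Values within each form are therefore given beside the main results. Library totals lay between 9499492 and 14488134 estimated counts. PB animal 2 lay apart from the other animals on the second principal component (6.15% of the variance), at 3.48 SD from the median against 2.65 SD for the next animal, and results that turn on it are given with and without it. Most listed markers of hippocampal neurons were well detected. Among those of dentate granule cells, median counts per animal were 880 for Prox1, 700 for Calb1, 150 for C1ql2 and 1 for Tdo2. A further one, Dsp, was not in the count table. Among those of pyramidal neurons, medians ran from 769 (Bok) to 3422 (Neurod6). In whole hippocampus, fewer cells of a type and less RNA per cell cannot be told apart.

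The members lie in the rn6 build at chr14:39154541-39229129 (Gabra4, NM_080587), chr1:112833989-112946732 (Gabra5, NM_017295), chr10:27848258-27862507 (Gabra6, NM_021841), chr5:172797479-172809375 (Gabrd, NM_017289), chr5:48374096-48411171 (Gabrr1, NM_017291), chr5:48303366-48341572 (Gabrr2, NM_017292), chr20:1955344-1984803 (Gabbr1, NM_031028) and chr5:62276100-62621738 (Gabbr2, NM_031802). Each span covers the whole transcript, exons and introns, and none overlaps another gene in the table. Gabrr1 and Gabrr2 are neighbours on chromosome 5.

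Promoter sequences of all 8 genes were found in RefSeq (GRCr8 build), and the 250 bases before the annotated start are printed below for 3 of them: Gabrr2, because its transcript passed both limits of the test after PB, Gabrr1 as the neighbouring rho gene, and Gabbr1, because its transcript was called in comparisons with both other groups. They run 5′ to 3′ on the gene's strand, and capitals mark matches to the motifs searched on both strands. The windows lie at chr5:52248228-52248477 (Gabrr2, plus strand), chr5:52320225-52320474 (Gabrr1, plus strand) and chr20:1499237-1499486 (Gabbr1, minus strand).
Gabrr2: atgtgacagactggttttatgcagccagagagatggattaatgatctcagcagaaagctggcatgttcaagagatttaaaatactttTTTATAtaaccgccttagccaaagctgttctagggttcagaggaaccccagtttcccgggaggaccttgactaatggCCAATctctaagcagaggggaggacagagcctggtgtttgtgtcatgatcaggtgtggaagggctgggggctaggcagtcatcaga
Gabrr1: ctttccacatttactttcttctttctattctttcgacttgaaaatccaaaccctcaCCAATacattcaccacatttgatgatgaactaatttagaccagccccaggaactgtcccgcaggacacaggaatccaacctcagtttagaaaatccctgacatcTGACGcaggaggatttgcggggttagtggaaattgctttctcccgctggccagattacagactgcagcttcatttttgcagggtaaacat
Gabbr1: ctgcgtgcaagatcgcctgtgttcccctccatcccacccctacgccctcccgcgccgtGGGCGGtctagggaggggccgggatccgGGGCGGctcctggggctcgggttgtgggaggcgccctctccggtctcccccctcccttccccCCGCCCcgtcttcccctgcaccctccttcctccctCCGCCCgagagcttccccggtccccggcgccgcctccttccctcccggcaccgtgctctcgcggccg

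The first motif searched was the cAMP response element, TGACGTCA, which was present in 1.59% of all 33356 promoter windows of this length. Its core, TGACG, lies within the full element and was present in 18.2%. The Egr motif GCGNGGGCG was present in 4.3% of the windows. The GC box, spelled GGGCGG, was present in 30.5%. A CCAAT match was present in 34.0% and a TATAAA match in 12.9%. In the Gabrr2 window the capitals are a TATAAA match on the minus strand at bases 88 to 93 and a CCAAT match at bases 165 to 169, counted from the first printed base. The Gabrr1 window held a CCAAT match at bases 57 to 61 and a TGACG match at bases 161 to 165, and the Gabbr1 window held 4 GGGCGG matches, 2 on each strand. The windows also differed in base composition. GC content was 47.6% in Gabrr2 and 44.0% in Gabrr1 with 2 and 5 CpG sites, and 41.2% in Gabra6 with 0, against a median of 51.6% and 5.0 sites over all promoters. The other 5 windows held 71.6% GC (Gabra4), 76.4% (Gabra5), 74.0% (Gabrd), 75.6% (Gabbr1) and 78.8% (Gabbr2), with 26 to 39 CpG sites. The 3 windows with lower GC belonged to Gabrr2 and to the 2 members under the count filter (Gabra6 and Gabrr1), a description of 8 genes that was not tested. A match is a run of letters and not a binding site.

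PB was compared with VEH to find how the transcripts of these receptors stood 72 h after a single dose. Of the 6 members that passed the count filter, 2 were lower after PB: Gabrr2, by 1.38-fold, and Gabbr1, by 1.07-fold. The extrasynaptic subunits Gabra4, Gabra5 and Gabrd, and the GABA-B partner Gabbr2, did not pass the test. All 6 fold changes were below 0, with a median log2 fold change of -0.09 against 0.00 over all 13062 transcripts, of which 48.1% were below 0. The limits of a call were an adjusted p under 0.05 and a log2 fold change of at least 0.32 in size (edgeR's quasi-likelihood test, Benjamini-Hochberg adjustment over 13062 transcripts). By both limits 1 of 6 members was called lower (Gabrr2), where 0.26% of all transcripts were lower and 0.605% were called in either direction. By adjusted p alone 2 of 6 were lower (Gabrr2 and Gabbr1), where 3.46% of all transcripts were lower and 5.39% were called in either direction.

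**Figure D1:**
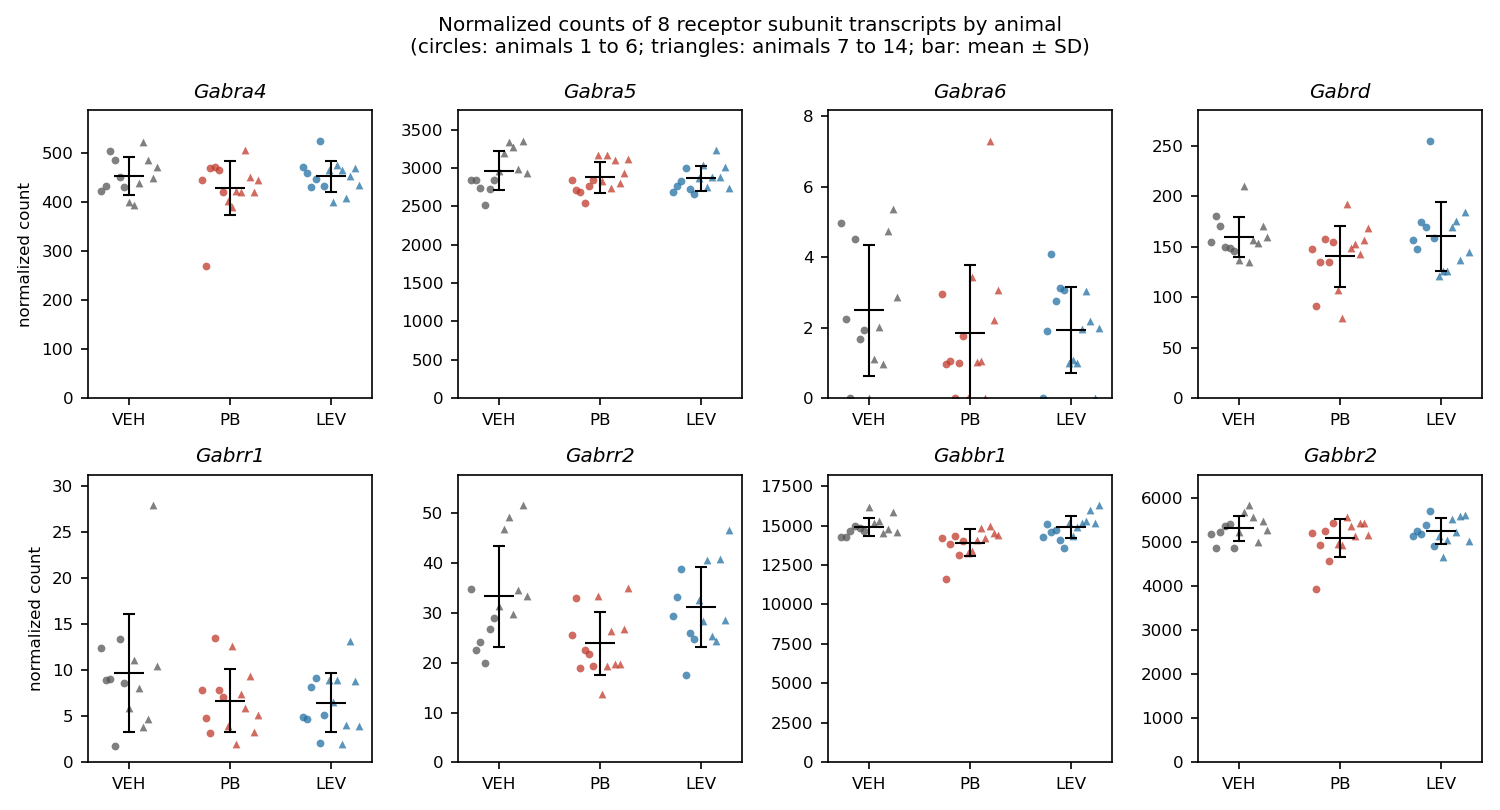
Normalized count (estimated count scaled to the mean effective library size, vertical axes from 0) of each of the 8 transcripts in each animal by treatment group, with circles for animals 1 to 6, triangles for animals 7 to 14, and bars for the mean ± SD over 13 VEH, 14 PB and 14 LEV animals. The groups overlap in every panel; the PB mean of Gabrr2 is 23.9 against 33.3 in VEH, and the PB mean of Gabbr1 is 13913 against 14931.

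Among the extrasynaptic GABA-A subunits, Gabrd, whose protein gives tonic receptors their high sensitivity to GABA, had normalized counts (estimated counts scaled to the mean effective library size of 11405252) from 134.7 to 210.5 in VEH, with a median of 154.7. In PB the lowest animal had 79.05, the median was 148.4 and the highest 192.5, and in LEV the values were 120.7, 158.1 and 254.9. Animals 8, 2 and 7 of the PB group (79.1, 91.1 and 107) lay below every VEH and LEV animal, while the groups otherwise overlapped. The log2 fold change after PB was -0.18 (SE 0.10, 95% interval -0.38 to 0.03, edgeR adjusted p = 0.348), and 12 of 14 PB animals were under the VEH average for their code form. It was -0.13 without PB animal 8, -0.13 without PB animal 2 and -0.15 without PB animal 7.

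Gabra4, the usual partner of Gabrd in the dentate gyrus, had normalized counts from 393.2 to 521.7 (median 449.4) in VEH, from 270.5 to 507 (median 433.2) in PB and from 401 to 524.3 (median 455.6) in LEV. PB animal 2, at 270.5, lay far below all other animals, and the groups otherwise overlapped. The log2 fold change after PB was -0.08 (SE 0.06, 95% interval -0.19 to 0.04, edgeR adjusted p = 0.468), and -0.04 without PB animal 2.

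Gabra5, the main extrasynaptic alpha subunit of pyramidal cells, had normalized counts from 2512 to 3348 (median 2937) in VEH, from 2543 to 3171 (median 2830) in PB and from 2660 to 3228 (median 2846) in LEV. The ranges lay almost on top of each other. The log2 fold change after PB was -0.05 (SE 0.03, 95% interval -0.11 to 0.01, edgeR adjusted p = 0.409), an interval that lies inside the fold limit. Among the members Gabra5 differed most firmly between the code forms: it was higher in animals 7 to 14 by 0.13 on the log2 scale (edgeR adjusted p = 8.36e-05). In VEH its mean was 2749 ± 128 (SD, n = 6) in animals 1 to 6 and 3150 ± 183 (SD, n = 7) in animals 7 to 14.

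Gabra6, the subunit of cerebellar granule cells, had 0 to 7 counts per animal and was at 0 in 7 of 41 animals. It did not reach the count filter. Its normalized count averaged 2.49 ± 1.86 in VEH (SD, n = 13), 1.84 ± 1.94 in PB and 1.94 ± 1.22 in LEV (SD, n = 14 each). In a fit with no filter the log2 fold change after PB was -0.44 with an interval from -1.38 to 0.51, so a change in either direction was not detectable at this depth. Of the 7 cerebellar granule cell markers, Fat2, Cbln3, Barhl1 and En2 had median counts per animal of 6, 2, 4 and 1. The summed normalized count of all 7, which include Zic1, Zic2 and Cbln1, lay between 529.2 and 946.8 in VEH, 574.3 and 1327 in PB and 560.4 and 1135 in LEV, and none of the 3 that passed the filter was called.

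Gabrr2, a rho subunit, had normalized counts from 19.92 to 51.48 (median 31.34) in VEH. In PB the lowest animal had 13.75, the median was 22.1 and the highest 34.89, and in LEV the values were 17.46, 29 and 46.63. PB animals filled the lower part of the range, with 13 of 14 under the VEH average for their code form, but the groups overlapped. Means were 33.3 ± 10.1 in VEH (SD, n = 13), 23.9 ± 6.32 in PB and 31.2 ± 8.03 in LEV (SD, n = 14 each). Gabrr2 was lower after PB by 0.46 on the log2 scale: the log2 fold change was -0.46 (SE 0.14, 95% interval -0.76 to -0.17, edgeR adjusted p = 0.0492). Each animal had only 12 to 49 counts of this transcript, and the adjusted p lay next to the limit: it ranged from 0.0271 (without PB animal 2) to 0.0988 (without VEH animal 13) when each of the 41 animals was left out in turn, and stayed under 0.05 in 12 of 41 fits. The fold change stayed between -0.525 and -0.411 in these 41 fits. The call was also lost with no count filter (edgeR adjusted p = 0.0509), with no code-form term (0.0767), with a treatment-by-code-form term (0.072) and with only the VEH and PB animals in the fit (0.0694), while DESeq2 gave an adjusted p of 0.0377.

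The values of Gabrr2 were also compared within each code form. In animals 1 to 6 its mean was 26.2 ± 5.26 in VEH and 23.5 ± 5.22 in PB (SD, n = 6 each), a log2 fold change of -0.16 (SE 0.22, edgeR adjusted p = 0.866). In animals 7 to 14 it was 39.5 ± 9.28 in VEH (SD, n = 7) and 24.2 ± 7.38 in PB (SD, n = 8), a log2 fold change of -0.70 (SE 0.19, edgeR adjusted p = 0.0218). The PB means of the forms lay within 1 SD of each other, and the VEH mean was higher in animals 7 to 14. The difference between the forms was -0.54 (SE 0.29, unadjusted p = 0.0685, edgeR adjusted p = 0.5), so it was not shown; 9 of 13062 transcripts passed that test.

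**Figure D2:**
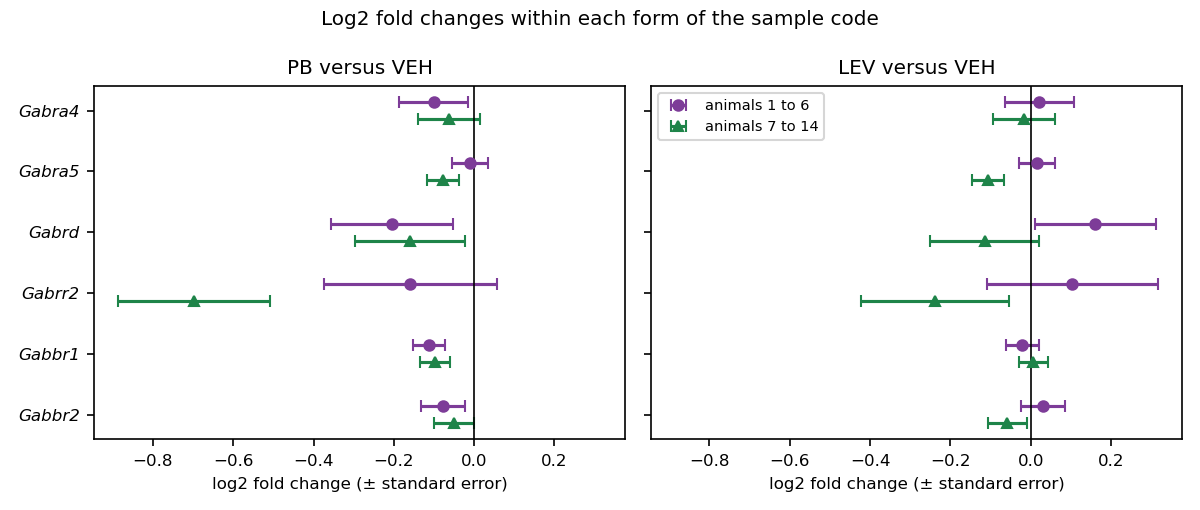
Log2 fold change (horizontal axes, points, with bars for ± 1 standard error) of the 6 tested transcripts in animals 1 to 6 (circles) and animals 7 to 14 (triangles), for PB against VEH on the left and LEV against VEH on the right. After PB, Gabrr2 is at -0.16 and -0.70 in the 2 sets of animals and Gabbr1 at -0.11 and -0.10.

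Gabrr1, the neighbouring rho gene, had 2 to 26 counts per animal and did not reach the count filter. Its normalized counts ran from 1.81 to 27.89 (median 8.99) in VEH, from 2.03 to 13.48 (median 6.49) in PB and from 1.96 to 13.21 (median 5.84) in LEV. A single VEH animal held the value of 27.89, and the groups overlapped. In the fit with no filter the log2 fold change was -0.53 after PB (SE 0.30, edgeR adjusted p = 0.357) and -0.59 after LEV (SE 0.30, edgeR adjusted p = 0.792), and both intervals included 0.

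Gabbr1, the subunit that binds GABA in the GABA-B receptor, had normalized counts from 14240 to 16180 (median 14800) in VEH. In PB the lowest animal had 11630, the median was 14160 and the highest 14980, and in LEV the values were 13590, 15000 and 16270. Each of the 14 PB animals was under the VEH average for its code form, and the ranges overlapped between 14240 and 14980. Means were 14931 ± 577 in VEH (SD, n = 13), 13913 ± 857 in PB and 14901 ± 718 in LEV (SD, n = 14 each). Gabbr1 fell by 6.98% after PB: the log2 fold change was -0.10 (SE 0.03, 95% interval -0.16 to -0.05, edgeR adjusted p = 0.0154). The interval lies inside the fold limit, so the transcript was called by adjusted p alone. The fold change was -0.11 (SE 0.04) in animals 1 to 6 and -0.10 (SE 0.04) in animals 7 to 14, a difference of 0.01 (SE 0.05, edgeR adjusted p = 0.954), and neither form alone passed the test (edgeR adjusted p = 0.318 and 0.0961). Without PB animal 2, the lowest PB animal, it was -0.09 (edgeR adjusted p = 0.0232), and the adjusted p stayed under 0.05 in 41 of 41 fits with 1 animal left out (0.0106 to 0.0323).

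Gabbr2, which carries the receptor's signal to the G protein, had normalized counts from 4867 to 5831 (median 5266) in VEH, from 3925 to 5563 (median 5194) in PB and from 4653 to 5713 (median 5203) in LEV. PB animal 2 was again the lowest of all, and 9 of 14 PB animals were under the VEH average for their code form. The log2 fold change after PB was -0.06 (SE 0.04, 95% interval -0.14 to 0.01, edgeR adjusted p = 0.369), and -0.04 without PB animal 2. That the fold change of Gabbr1 passed the test and that of Gabbr2 did not is no test of a difference between the partners, which was not run.

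**Figure D3:**
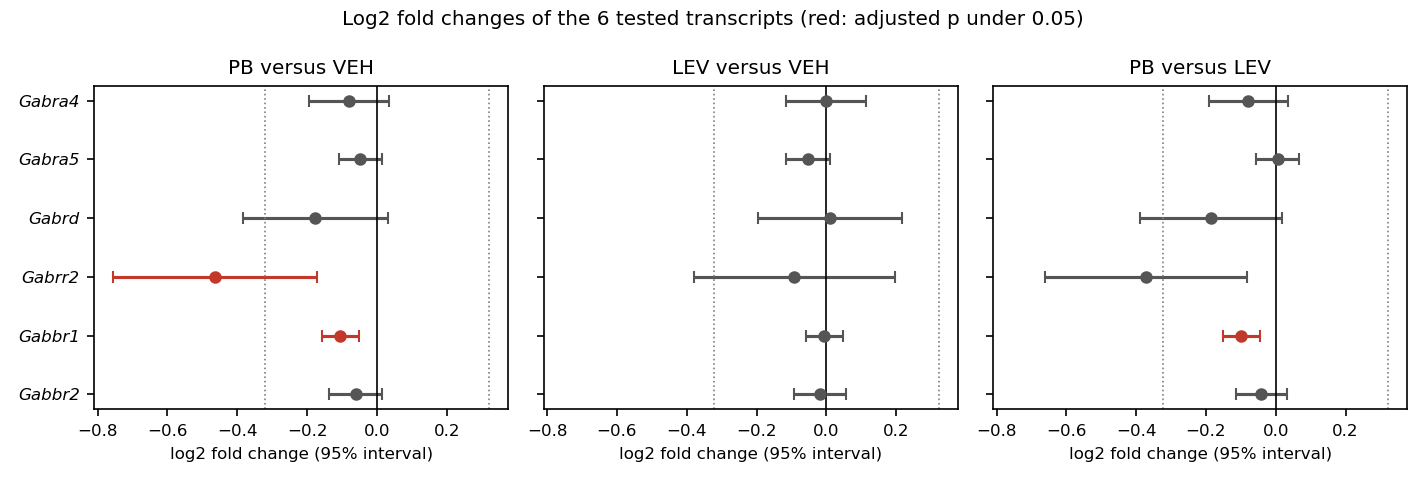
Log2 fold change (horizontal axes, points, with bars for the 95% interval) of the 6 tested transcripts in the 3 comparisons, with red for an adjusted p under 0.05 and dotted lines at the fold limit (log2 change of 0.32 in size). Gabrr2 (-0.46) and Gabbr1 (-0.10) are red for PB against VEH, no transcript is red for LEV against VEH, and Gabbr1 (-0.10) is red for PB against LEV.

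LEV was compared with VEH to ask the same of a drug whose main target is not a GABA receptor. None of the 6 tested members passed the test after LEV, by either rule. Over all transcripts 0% were called by both limits and 0.00766% by adjusted p alone (1 transcript), while 763 (5.84%) had an unadjusted p under 0.05 and no member did. DESeq2's Wald test also called no member. Log2 fold changes were -0.00 for Gabra4 (95% interval -0.11 to 0.11), -0.05 for Gabra5 (-0.11 to 0.01), 0.01 for Gabrd (-0.20 to 0.22), -0.09 for Gabrr2 (-0.38 to 0.20), -0.01 for Gabbr1 (-0.06 to 0.05) and -0.02 for Gabbr2 (-0.09 to 0.06). The intervals of Gabra4, Gabra5, Gabbr1 and Gabbr2 were therefore narrow and that of Gabrr2 wide enough to reach past the fold limit. The median of the 6 was -0.01 against 0.00 over all transcripts, of which 49.8% were below 0. Within code forms, Gabra5 was at 0.02 in animals 1 to 6 and -0.11 in animals 7 to 14 after LEV, a difference of -0.12 (SE 0.06, unadjusted p = 0.0486, edgeR adjusted p = 0.384).

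PB and LEV were also compared with each other, in the same fit. Gabbr1 was lower after PB than after LEV by 0.10 on the log2 scale: the log2 fold change was -0.10 (SE 0.03, 95% interval -0.15 to -0.05, edgeR adjusted p = 0.0234), and 14 of 14 PB animals were under the LEV average for their code form. This comparison shares its PB animals with the comparison of PB and VEH. It was the 1 member of 6 called by adjusted p alone, where 2.78% of all transcripts were lower and 4.45% were called in either direction. By both limits 0 of 6 members were called, where 0.299% of all transcripts were lower and 0.582% were called in either direction, while 2 of 6 members (Gabbr1 and Gabrr2) and 19.6% of all transcripts had an unadjusted p under 0.05. Gabbr1 kept an adjusted p under 0.05 in 39 of 41 fits with 1 animal left out, and reached 0.052 without PB animal 7 and 0.0514 without LEV animal 2.

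For Gabrr2 the log2 fold change of PB against LEV was -0.37 (SE 0.14, 95% interval -0.66 to -0.08, edgeR adjusted p = 0.126), and 12 of 14 PB animals were under the LEV average for their code form. Although Gabrr2 was called against VEH after PB and not after LEV, the direct comparison of the drugs did not pass the test. The other members gave -0.19 for Gabrd (95% interval -0.39 to 0.02), -0.08 for Gabra4 (-0.19 to 0.03), 0.01 for Gabra5 (-0.06 to 0.07) and -0.04 for Gabbr2 (-0.12 to 0.03), with edgeR adjusted p from 0.308 to 0.949. Without PB animal 2 the log2 fold change was -0.435 for Gabrr2, -0.145 for Gabrd, -0.0382 for Gabra4, 0.00374 for Gabra5, -0.0194 for Gabbr2 and -0.085 for Gabbr1, and the last kept its call (edgeR adjusted p = 0.0307). Gabrd was at -0.122 without LEV animal 5.

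Subunits that share a receptor were compared across animals, after the means of treatment and code form had been removed from the log2 CPM (counts scaled to a common library size). Gabbr1 and Gabbr2, obligate partners, varied together over 41 animals, with Pearson's r = 0.636 (permutation p = 6e-05, adjusted over 2 pairs 0.00012) and Spearman's rho = 0.507 (permutation p = 0.00073, adjusted 0.00146). Without PB animal 2 and LEV animal 8, the animals farthest from the median of Gabbr1, r was 0.39 (n = 39, permutation p = 0.0143). In animals 1 to 6 it was 0.796 (n = 18), and 0.466 without PB animal 2 and LEV animal 6 (n = 16, permutation p = 0.0706). In animals 7 to 14 it was 0.433 (n = 23), and 0.531 without LEV animal 14 and PB animal 12 (n = 21, permutation p = 0.0129). Within groups it was 0.186 in VEH, 0.899 in PB and 0.356 in LEV, and 0.742 in PB without its 2 farthest animals (PB animals 2 and 7). Differences between these values were not tested. The highest rho of any other gene's transcript was 0.668 for Gabbr1 (Syt12) and 0.778 for Gabbr2 (Smap2). Each is the largest value picked from 13062 transcripts, so it gives no measure of how close the partners are. Both transcripts of an animal come from 1 library, so they share its depth and any difference in dissection. Whether the partners varied together more than other pairs of transcripts was not tested.

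Gabra4 and Gabrd, partners in dentate granule cells, had r = 0.447 (permutation p = 0.00564, adjusted over 2 pairs 0.00564) and rho = 0.265 (permutation p = 0.0939). Without PB animals 2 and 11, the animals farthest from the median of Gabra4, r was 0.259 (n = 39, permutation p = 0.111), so the relation did not pass the test without them. Distance from the median of Gabrd was not used to choose them. In animals 1 to 6 r was 0.718, falling to 0.0437 without PB animal 2 and LEV animal 5, and in animals 7 to 14 it was 0.218. Within groups it was -0.134 in VEH, 0.628 in PB and 0.42 in LEV, and without the 2 farthest animals of each group 0.361, 0.447 and -0.369. The pairs Gabra6 with Gabrd and Gabrr1 with Gabrr2 were not computed, since 1 member of each was under the count filter.

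**Figure D4:**
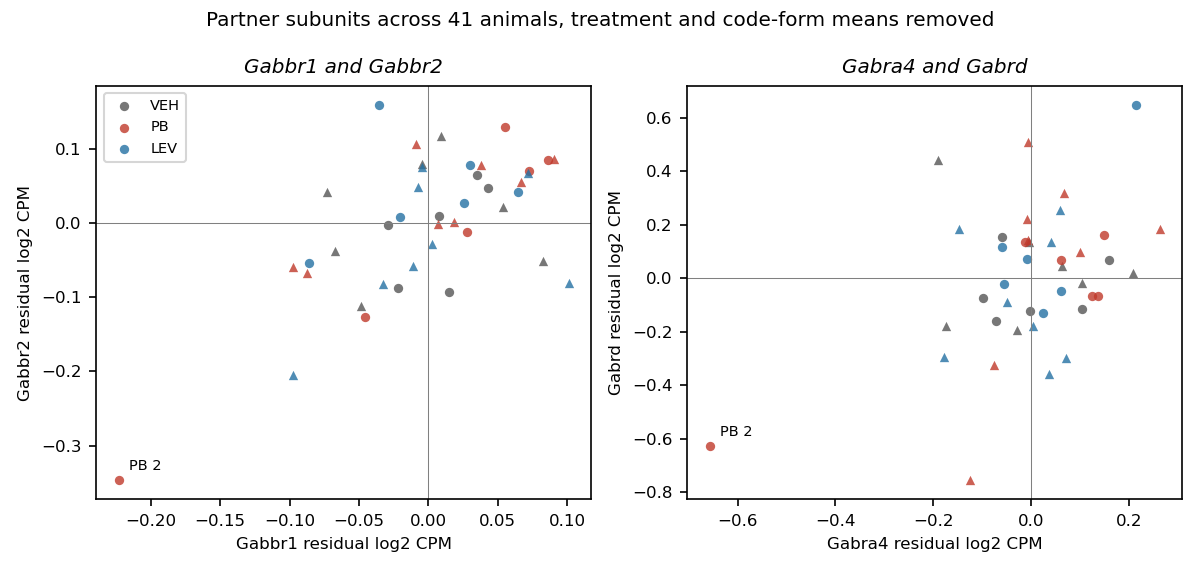
Residual log2 CPM of partner subunits in 41 animals, with Gabbr1 (horizontal) against Gabbr2 (vertical) on the left and Gabra4 (horizontal) against Gabrd (vertical) on the right, after treatment and code-form means were removed; circles are animals 1 to 6 and triangles animals 7 to 14. PB animal 2 lies at the lower left of both panels. Without the 2 animals farthest from the median on the horizontal axis, PB animal 2 among them, r is 0.39 on the left and 0.259 on the right.

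Residual log2 CPM per transcript, with the means of treatment and code form removed, was used for a further description. It lists the 3 transcripts of other genes whose Spearman correlation with each member was highest over the 41 animals and 13062 transcripts. The partner correlations above used counts summed per symbol instead. Gabrd lay closest to Susd4 (0.794), Pitpnm2 (0.76) and Rab15 (0.758), and Gabra5 to Trappc2 (0.749), Gpm6a, a neuronal membrane glycoprotein (0.707), and the long noncoding RNA Tug1 (0.705). For Gabbr2 these included Smap2 (0.778) and Cpne5 (0.744). Gabbr1 lay closest to Syt12, a synaptotagmin (0.668), the glycolytic enzyme Pgam1 (0.668) and Pip5k1c (0.652), and Gabra4 to Tsr2 (0.63), Tacc1 (0.628) and Pcolce (0.602). The values for Gabrr2 were lower, with Ypel4 (0.555), Ahsa1 (0.539) and Mepce (0.53). Transcripts of the same animal share its library depth and any difference in dissection.

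The rest of the GABA pathway was read from a list of 53 genes, of which 47 passed the count filter. After PB 0 of 47 were called by both limits (0.605% of all transcripts), and by adjusted p alone 8 were lower and 0 higher, where 3.46% of all transcripts were lower, with a median log2 fold change of -0.02 over the 47. Against LEV, 6 were lower after PB and 0 higher by adjusted p alone, where 2.78% of all transcripts were lower. After LEV against VEH 0 of 47 were called by edgeR, and 4 had an unadjusted p under 0.05 (5.84% of all transcripts). The counts by role follow for PB and VEH, and differences between the roles were not tested.

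GABA supply and removal had 4 of 8 lower and 0 higher after PB by adjusted p alone (3.46% of all transcripts were lower), with a median of -0.16. Among them were Slc32a1, which loads GABA into vesicles, at -0.27 (SE 0.06, edgeR adjusted p = 0.00367) and the GABA breakdown enzymes Abat at -0.27 (edgeR adjusted p = 0.016) and Aldh5a1 at -0.16 (edgeR adjusted p = 0.00426). Gad1, which makes GABA, was at -0.16 (edgeR adjusted p = 0.0605) against VEH and at -0.18 (edgeR adjusted p = 0.04) against LEV.

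Assembly, anchoring and trafficking had 3 of 14 lower and 0 higher by the same rule (3.46% of all transcripts were lower), with a median of -0.03. They were Nsf, the ATPase that takes apart membrane fusion complexes, at -0.20 (edgeR adjusted p = 0.00391), Trak2, an adaptor for transport along microtubules, at -0.14 (edgeR adjusted p = 0.00647), and Gabarapl1, of the family that carries GABA-A receptors and takes part in autophagy, at -0.14 (edgeR adjusted p = 0.023). Of the other GABA-A subunits 1 of 10 was lower and 0 higher (median -0.00), namely Gabrg1 at -0.24 (SE 0.06, edgeR adjusted p = 0.0157). Among those next to the limit without passing it, beside Gad1, was Ajap1, which binds GABA-B receptors, at -0.15 (edgeR adjusted p = 0.0668).

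The GABA-B partners and effectors, through which the receptor acts, had 0 of 13 called in any comparison and a median of 0.00 after PB, with 6 of 13 below 0. The potassium channel subunits that GABA-B receptors open were at -0.04 (Kcnj3), -0.08 (Kcnj6) and -0.01 (Kcnj9), with edgeR adjusted p from 0.325 to 0.965. The list for neurosteroid synthesis, whose products act on receptors with Gabrd, had 2 of 4 transcripts above the filter and 0 called. These were the enzyme Srd5a1 at -0.01 and Tspo, a protein of the outer mitochondrial membrane, at 0.19 (edgeR adjusted p = 0.931 and 0.549).

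**Figure D5:**
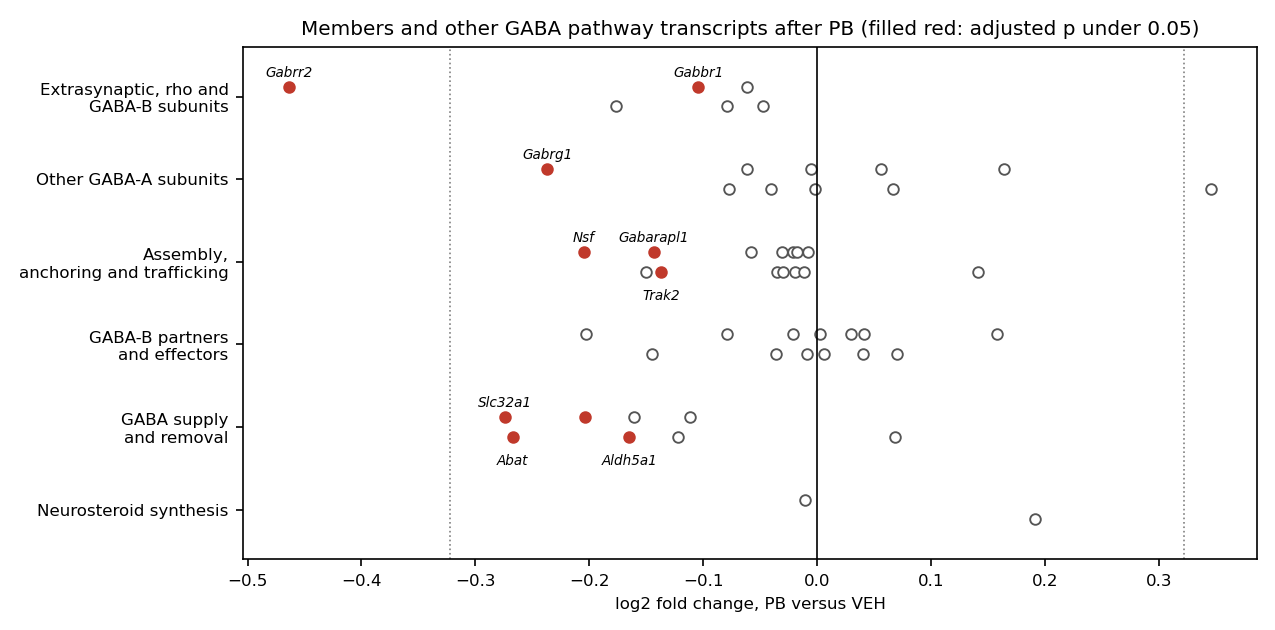
Log2 fold change of PB against VEH (horizontal axis) for the 6 tested members (top row) and the 47 tested genes of the other GABA pathway lists, with 1 point per transcript, filled red for an adjusted p under 0.05, and dotted lines at the fold limit (log2 change of 0.32 in size). All red points lie below 0: Gabrr2 and Gabbr1 among the members, and 8 other genes, of which 4 belong to GABA supply and removal and 0 to GABA-B partners and effectors.

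Markers of several cell types moved with PB, and their levels stand here beside the falls of Gabrr2 and Gabbr1. Of the GABA interneuron markers (8 genes, 9 transcripts), 2 were lower after PB by both limits, Sst at -0.38 and Pvalb at -0.83. Over all transcripts 0.26% were lower by both limits and 3.46% by adjusted p alone. The normalized count of Pvalb averaged 66.6 ± 18.1 in VEH and 37.9 ± 33.3 in PB (SD). By adjusted p alone 3 of these markers were lower. The third was Slc32a1, which is counted above under GABA supply and removal, as are Gad1 and Gad2 of this list. Their summed normalized count lay between 5529 and 7835 (median 7170) in VEH, 4634 and 7345 (median 5979) in PB and 6329 and 8089 (median 7087) in LEV. The sum of the 6 pyramidal neuron markers lay between 9727 and 11820 in VEH, 9128 and 10660 in PB and 9282 and 11200 in LEV, with 1 of 6 genes lower by adjusted p alone (Fibcd1, at -0.21 and -0.22 in its 2 transcript rows, which hold nearly the same counts and both enter the sum). The sum of the 4 dentate granule cell markers in the table lay between 1038 and 2084 in VEH, 1433 and 1843 in PB and 1391 and 1855 in LEV, with 0 of 3 tested called. The part of neuronal markers in the falls of Gabrr2 and Gabbr1 was not tested.

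Markers listed for tissue beyond the hippocampus also varied between libraries. Of the thalamic markers 4 were tested and 2 were higher after PB by both limits (Tcf7l2 and Prkcd, both at 0.35), where 0.345% of all transcripts were higher. Slc17a6 was at 0.00 and Lef1 at -0.13. The sums of the list overlapped, from 1189 to 1556 in VEH, 1249 to 1612 in PB and 1312 to 1593 in LEV. The part of the thalamic markers in the result was not tested. Skeletal muscle markers summed to between 131.9 and 487 in VEH, 118.8 and 199.5 in PB and 126.6 and 585.9 in LEV. By both limits 3 of the 4 tested were lower after PB, where 0.26% of all transcripts were lower. Among these 3, Atp2a1 and Myh4 had a median of only 5 counts per animal, and Acta1 had 121. Atp2a1 averaged 3.44 normalized counts in PB against 29.2 in VEH, and Myh4 4.27 against 25.6. The count filter did not require counts in every group. Myh1 was at -0.08. With the level of the muscle markers as a covariate the log2 fold change of Gabrr2 was -0.541 (SE 0.179, edgeR adjusted p = 0.104), against -0.463 (SE 0.145) in the main fit. That of Gabbr1 was -0.0905 (SE 0.0336, edgeR adjusted p = 0.151), against -0.104 (SE 0.0267). The estimates thus stayed below 0 and their standard errors grew. Choroid plexus markers ran from 240.7 to 87320 over all animals and 0 of 8 transcripts were called. With their level as a covariate the values were -0.43 for Gabrr2 (edgeR adjusted p = 0.0672) and -0.10 for Gabbr1 (edgeR adjusted p = 0.0213). Both covariates were chosen after the data were seen.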

How the data were processed

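The authors aligned trimmed reads to rn6 with STAR 2.7.3a, and the deposited values are estimated counts per RefSeq transcript from the Partek E/M algorithm, before normalization. These 13.7% non-whole counts were rounded. The deposited table of comparisons (p-values, ratios, fold changes and group means of the authors) was not used.

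In R 4.3.3, edgeR 4.0.16 (TMM, filterByExpr by treatment, glmQLFit, glmQLFTest) fitted treatment and code form to the 41 animals (animal totals 9499492 to 14488134), with Benjamini-Hochberg adjustment over 13062 transcripts. The numbers of animals and counts set the precision, given as standard errors and 95% intervals. Animals of a group came from separate litters, so p-values measure the spread between animals. The paper balanced the treatments within litters, so pups of different groups could be littermates. The labels do not name the litters, and no test had a litter term. No pair of animals among 820 had identical counts. On simulated data for PB against VEH, with 13014 transcripts of which 200 changed 2-fold, 186 (93%) were recovered and 1 unchanged transcript was called. The simulation held no smaller change and no difference between code forms. It therefore does not show how often changes as small as those of Gabrr2 and Gabbr1 would be found.

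The members and the gene lists were chosen with earlier results of these data known. The genes named from the pathway list are those called and, for PB against VEH, the 3 next by p. The 8 called by adjusted p alone were taken as called, and the potassium channel subunits were named after their values were seen. Some genes that this rule or the list of similar transcripts would name are not reported here. Correlations used 100000 permutations and log2 CPM (prior count 2). Alternatives were other normalizations, filters, terms and sets of animals, DESeq2 1.42.0, and each animal left out. No genome of the rn6 build was used here, so levels were not compared between genes per length.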

Additional observations from a re-analysis of the deposited data

Results flagged for a closer look

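The GABA-B transcripts were far above the level of the other VEH animals in the VEH animal that its label marks as excluded, which was left out of the main comparisons and kept only in 1 alternative. Gabbr1 stood at 1779 CPM there, against 1218 to 1419 in the other 13 VEH animals, and Gabbr2 at 684.9 against 403.9 to 514.4. In the same animal Gabra4 (25.48 against 34.57 to 45.67) and Gabra5 (149.9 against 216.5 to 295.8) were below the range, Gabrd (16.85 against 11.88 to 18.51) and Gabrr2 (3.856 against 1.717 to 4.548) were within it, and Gabra6 and Gabrr1 had 0 counts. 18S ribosomal RNA took 2.42% of this animal's counts and 0.853% to 1.23% in the other VEH animals. The part of RNA quality in these values was not tested.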

How the results depend on the processing

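The count of members called by both limits for PB against VEH (1, Gabrr2) was 0 with no filter, a mean count of at least 50 (which leaves Gabrr2 untested), no code-form term, animals 1 to 6 only, the treatment-by-code-form term, the replicate block, only the 2 groups compared, or the choroid plexus or skeletal muscle covariate. The count by adjusted p alone (2) was 1 with no filter, the mean of at least 50, no code-form term, animals 7 to 14 only, the treatment-by-code-form term, the block, 2 groups or the choroid plexus covariate, and 0 with animals 1 to 6 or the muscle covariate. For PB against LEV the count by adjusted p alone (1, Gabbr1) was 0 with no code-form term, each code form alone, the excluded animal kept, or the muscle covariate. Each code form alone has fewer animals, and otherwise the cause was not tested. With each animal left out in turn, these 3 counts ranged from 0 to 1, 1 to 2 and 0 to 1. Those for LEV against VEH were 0 under the alternatives run.

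Among values near 0, the log2 fold change of Gabra4 for LEV against VEH was positive with DESeq2 size factors (0.000671), DESeq2 (0.000682), batch effects subtracted (0.00344), animals 1 to 6 (0.0265), the treatment-by-code-form term (0.00219), the replicate block (0.00531), the excluded animal kept (0.0303), 2 groups (0.000234), counts summed per symbol (0.00076) and the muscle covariate (0.000663). Other LEV values also turned: Gabra5 (0.0206), Gabrr2 (0.109) and Gabbr2 (0.0348) in animals 1 to 6, Gabrd (-0.116) and Gabbr1 (0.00566) in animals 7 to 14, and Gabrd with the excluded animal (-0.0243). For PB against LEV, Gabra5 was -0.0301 in animals 1 to 6 and -0.00645 with the muscle covariate, and Gabbr2 0.00941 in animals 7 to 14. With 1 animal left out, LEV against VEH ranged from -0.0133 to 0.00322 (Gabbr1), -0.018 to 0.0195 (Gabra4) and -0.0547 to 0.0522 (Gabrd), and PB against LEV from -0.00377 to 0.0177 (Gabra5). In animals 7 to 14 the correlations were 0.433 (Gabbr1 and Gabbr2) and 0.218 (Gabra4 and Gabrd) and did not pass the test. Animals with the same number did not visibly deviate together (median r -0.0138 for VEH and PB, -0.0997 for VEH and LEV, 0.00299 for PB and LEV). No pairing by number was seen, but r varied widely between pairs, so whether the numbers mark litters cannot be told from it. With the animal number as a replicate block, Gabrr2 was at -0.49 after PB (edgeR adjusted p = 0.053). Depth limits Gabrr2 (12 to 49 counts per animal), Gabrr1 and Gabra6.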
